A study of Mus musculus with 27 samples.

Results

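The zinc finger genes described here are mouse genes whose symbols begin with Zfp, Zkscan or Zscan and a number. They were chosen by symbol and by level: Zfp36 and its 3 relatives, pseudogenes and antisense transcripts were left out, and a mean of at least 100 raw counts over all 27 libraries was required. Of 411 such genes 279 met the floor, among 37095 rows of the count table, and 132 did not. Just inside it stood Zfp959 (mean 102.1 counts), and just outside it Zfp354a (99.1). The study measured poly(A) RNA of mouse brain, meninges and skull cap 0.5 h after UVB (311 nm, 2 mW) was shone on the interparietal bone of the skull, 24 h after it, and in untreated controls. Each of the 9 groups held 3 libraries with totals of 14.2 to 27.3 M counts. The labels name the irradiated groups as photobiomodulation of the skull and the controls as untreated. Strain, sex and age are not given in the labels used here, which do not say either whether the libraries of a group came from separate animals, so p-values measure the spread between these libraries, which may be technical. All 279 genes were tested in brain and in meninges, and 277 in skull.

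Most of these genes encode proteins that read DNA through arrays of C2H2 zinc fingers, each holding a zinc ion between a pair of cysteines and a pair of histidines. Many carry in addition a KRAB domain, which recruits TRIM28 (KAP1) and, through it, the methyltransferase SETDB1 to place histone H3 lysine 9 methylation, chiefly at transposable elements. KRAB zinc finger genes arose by tandem duplication and lie in chromosomal clusters, and others carry a SCAN domain, which pairs proteins with each other. A KRAB domain was found in the annotated protein of 142 members and none in that of 134, while 3 had no annotated protein. The search used a profile built from matches of a fixed pattern, so KRAB domains unlike these may have been missed. Members called without KRAB are those in which none was found this way. Members with KRAB had a median of 11.5 fingers (range 2 to 30), against 7 (range 0 to 36) for those without. Their transcripts were poorer in G and C, with a median GC content of 42.6%, against 50.1%.

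As a class, the zinc finger genes took a larger share of the counts after UVB in all 3 tissues, at both times. In brain they held 0.913 to 0.933% of all counts at 0.5 h and 0.97 to 1.01% at 24 h, against 0.863 to 0.892% in controls. In meninges the share was 0.832 to 0.854% at 0.5 h and 0.851 to 0.882% at 24 h, against 0.731 to 0.767% in controls. Skull libraries gave 0.707 to 0.73% at 0.5 h and 0.687 to 0.716% at 24 h, against 0.594 to 0.642% in controls. In no tissue did an irradiated library overlap the controls. In these bulk samples fewer cells of a type and less RNA per cell cannot be told apart.

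**Figure D1:**
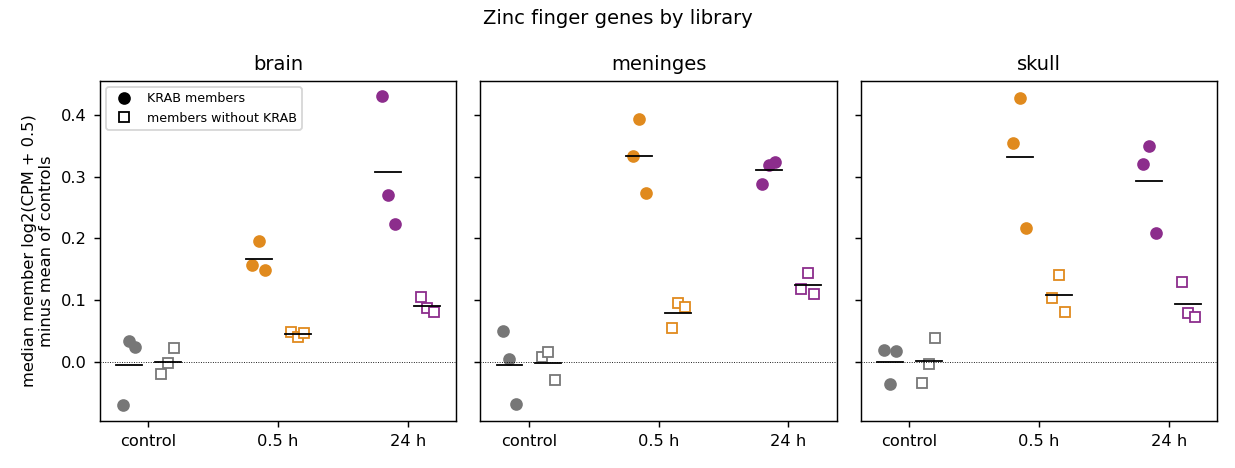
Median, over the members with KRAB (filled circles) and without (open squares), of log2(CPM + 0.5) minus the mean of the tissue's 3 controls, with 1 point per library and bars at group means, and CPM is the count scaled to a TMM-adjusted total. KRAB medians were 0.15 to 0.20 at 0.5 h and 0.22 to 0.43 at 24 h in brain, against -0.071 to 0.033 in its controls.

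Members with KRAB had the larger medians. Their median log2 fold change against control was 0.17 at 0.5 h and 0.31 at 24 h in brain, 0.36 and 0.34 in meninges, and 0.34 and 0.33 in skull. For members without KRAB it was 0.042 and 0.094 in brain, 0.077 and 0.13 in meninges, and 0.12 and 0.085 in skull. Over all tested genes these medians lay between -0.003 and 0.017. In brain at 24 h, 133 of the 142 members with KRAB (93.7%) had a positive fold change, against 49.5% of all tested genes. In that comparison the share went with GC content among other genes above the floor. It was 73.6% under 40% GC, 64.7% at 40 to 45% and 28% over 55%. For KRAB members of these classes it was 94.7%, 96.4% and 66.7%. In meninges at 0.5 h the share was 90.8%, against 51.5%. The 0.5 h and the 24 h comparison of a tissue share their 3 control libraries, so their values are not independent of each other.

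**Figure D2:**
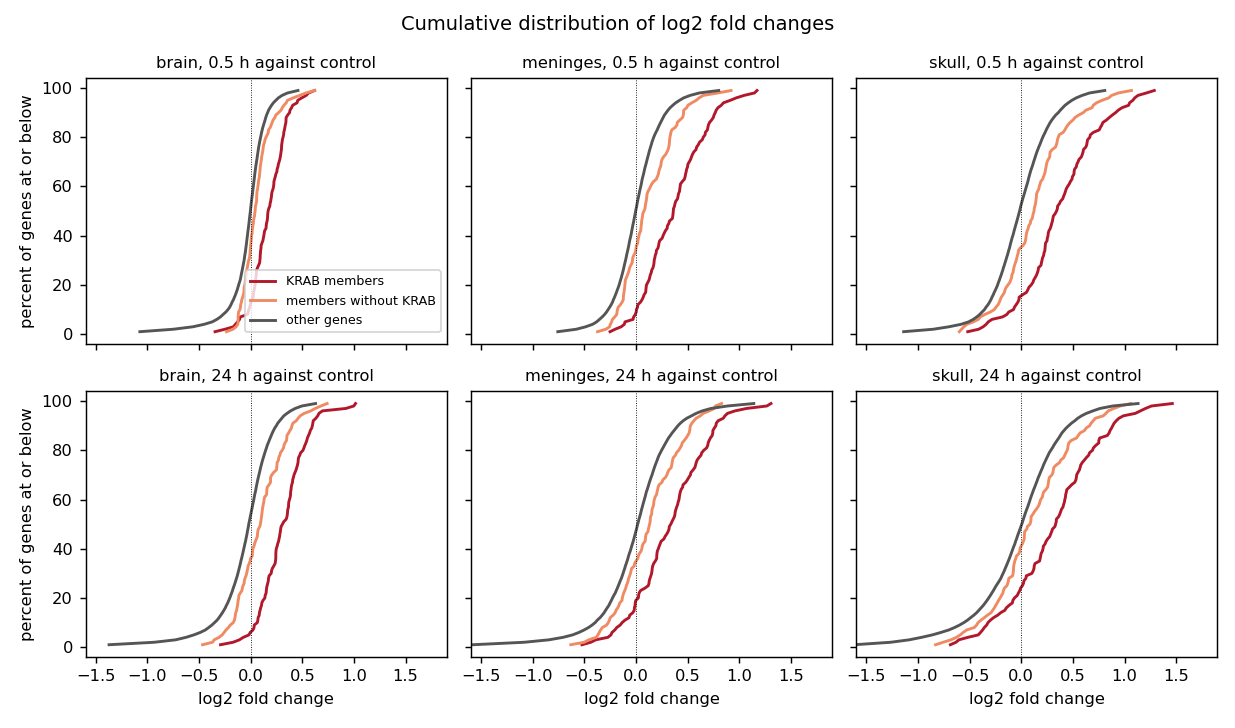
Cumulative distribution of log2 fold changes (x axis) in the 6 comparisons with control for KRAB members, members without KRAB and other genes with a mean raw count of at least 100; the y axis gives the percent of genes at or below a fold change, from percentiles 1 to 99, and the x axis is cut at -1.6. The KRAB curves lie to the right of the others in all 6 panels, with medians between 0.17 and 0.36.

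In brain at 0.5 h no single member passed the test. A gene is called here when its edgeR quasi-likelihood p, adjusted over all tested genes, was under 0.05. Of 279 members 0 were called in either direction with edgeR and 43 had an unadjusted p under 0.05, while DESeq2 called 1. The 43 are given with no share over all tested genes beside them and are not read as a result. Of all 18172 genes 0% were called higher and 0.0055% lower. All 3 irradiated libraries lay above all 3 controls for 62 members (22.2%), against 5.98% of all tested genes. The smallest p belonged to Zfp84, a KRAB gene of the chromosome 7 arrays. Zfp84 had 17.6, 21.7 and 17.5 CPM at 0.5 h and 11.2, 13.1 and 10.4 CPM in controls. These groups did not overlap, with a log2 fold change of 0.72 ± 0.14 (SE) and an adjusted p of 0.176. Next by p were Zfp748 (0.65 ± 0.16, adjusted p = 0.453) and Zkscan3 (0.33 ± 0.08, 0.459).

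In brain at 24 h 32 members (11.5%) rose and none fell, against 1.21% of all tested genes called higher and 1.42% called lower. Of the 32, 27 carried KRAB. The 24 h libraries lay above the controls for 109 members (39.1%), against 11.5% of all genes. Zfp719 had 23.3, 16.3 and 17.3 CPM at 24 h, against 8.27, 9.72 and 9.87 CPM in controls. All 3 irradiated libraries were above all controls, the first of them highest, and the log2 fold change was 1.04 ± 0.17 (adjusted p = 0.0041). Zfp111 had 16.7, 14.4 and 13.4 CPM, against 6.99, 7.02 and 7.96 CPM in controls (1.02 ± 0.16, adjusted p = 0.00305). Zfp84 reached 24.6, 21.2 and 23.2 CPM at 24 h, against 11.2, 13.1 and 10.4 CPM in controls (0.997 ± 0.14, adjusted p = 0.000883). The groups of both genes were clear of each other. Zkscan3, a SCAN-domain factor known from human cells as a repressor of autophagy genes, was far more abundant: 137, 120 and 120 CPM at 24 h, against 70.7, 73.8 and 77.2 CPM in controls. Its log2 fold change was smaller but the most tightly measured of these (0.77 ± 0.08, adjusted p = 5.98e-05). Zfp87 rose as well (1.01 ± 0.23, adjusted p = 0.0264), but lost the call without control 1, control 3 or 24 h 1 (adjusted p up to 0.103). The other 4 kept theirs whichever of the 9 libraries was left out.

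The number of brain calls at 24 h depended on single libraries. Without control 1, the deepest library, 13 members were called, and without 24 h 1 14 were. Leaving out control 2 gave 19, and leaving out control 3, 0.5 h 2 or 24 h 2 gave 21. The median log2 fold change of the members stayed between 0.17 and 0.25 through all 9 omissions. Brain 24 h 1 stood apart in having the highest KRAB median deviation (0.43), the lowest median for cytosolic ribosomal protein genes (-0.54) and 4.11% mitochondrial counts, against 3.08 to 3.53% in the other 8 brain libraries. Its median deviation for other genes of low GC content was 0.162, against -0.037 to 0.043 in the other 8 brain libraries. The ribosomal protein genes as a list had a median log2 fold change of -0.42 in brain at 24 h and -0.22 at 0.5 h. By library their median deviation was -0.22 to 0.277 in controls. It was -0.235 to -0.157 at 0.5 h, overlapping the controls, and -0.535 to -0.253 at 24 h, below them. The summed level of 4 astrocyte markers, none of them at 0, was 768 to 795 CPM in brain at 24 h, against 801 to 831 CPM in controls. By single markers, 0 of the 4 had all 24 h libraries below or above all controls. Total counts were 14.7 to 15.3 M at 0.5 h and 14.2 to 14.6 M at 24 h, against 15.4 to 27.3 M in controls. The part of these measures in the result was not tested.

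In meninges at 0.5 h 21 members (7.53%) rose and none fell, against 0.367% and 0.507% of all tested genes. Irradiated libraries lay above controls for 112 members (40.1%), against 10.8% of all genes. Zfp780b had 14.7, 13.4 and 14.2 CPM at 0.5 h, against 6.34, 6.29 and 6.32 CPM in controls. The groups were tight and far apart (1.16 ± 0.13, adjusted p = 0.00379). It shares 27.5% of its transcript's 50-base stretches with other genes, chiefly its neighbour Zfp974, so reads may have been split between them. Zfp65 had 11.1, 13.2 and 12.1 CPM, against 4.14, 6.76 and 4.67 CPM in controls (1.22 ± 0.20, adjusted p = 0.0221). Zfp790 had 15.5, 18.1 and 15.4 CPM, against 7.08, 8.60 and 6.44 CPM in controls (1.15 ± 0.16, adjusted p = 0.0102). Zfp324 had 16.1, 13.6 and 17.6 CPM, against 7.35, 8.48 and 5.02 CPM in controls (1.18 ± 0.19, adjusted p = 0.0187). No irradiated library of these 4 genes reached down to a control.

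Zfp780b kept its meninges call at 0.5 h in all 9 omissions of a library. Zfp65 lost it without control 1, control 3 or any 0.5 h library (up to 0.13), Zfp324 without control 1 or any 0.5 h library (up to 0.105), and Zfp790 without control 1, 0.5 h 1 or 0.5 h 2 (up to 0.0776). The number of calls was as fragile: 1 was called without 0.5 h 1 or without 0.5 h 2, 2 without control 1, 6 without control 2, 7 without control 3 and 11 without 0.5 h 3, 24 h 2 or 24 h 3. The median of the members held between 0.19 and 0.23 in these fits. Ribosomal protein genes had a median of -0.25 in this comparison, and the summed level of 6 meningeal fibroblast markers was 551 to 668 CPM, against 482 to 508 CPM in controls, with none of the 6 at 0. By single markers, 2 of the 6 had all 0.5 h libraries above all controls, and 0 had them below. The part of these measures in the result was not tested.

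In meninges at 24 h 51 members (18.3%) rose and 7 (2.51%) fell, against 3.97% of all tested genes called higher and 4.45% lower. KRAB was carried by 32 of those that rose and by 1 of those that fell. The 24 h libraries lay above the controls for 116 members (41.6%), against 14.9% of all genes. The genes that rose most were the same 4 that led at 0.5 h, against the same control libraries. Zfp790 had 17.4, 18.4 and 22.3 CPM, against 7.08, 8.60 and 6.44 CPM in controls (1.39 ± 0.16, adjusted p = 0.000723). Zfp780b followed at 1.33 ± 0.13 (adjusted p = 0.000271), Zfp65 at 1.28 ± 0.20 (0.00419) and Zfp324 at 1.27 ± 0.19 (0.00321). All 4 kept the call in every omission of a library. At this time the ribosomal protein median was near 0 (-0.038).

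The meninges members that fell at 24 h were, with one exception, genes without KRAB. Zfp628 had 18.7, 15.4 and 18.4 CPM, against 26.9, 26.0 and 29.7 CPM in controls (-0.65 ± 0.11, adjusted p = 0.00669). Zfp423, a partner of EBF factors that commits cells to the preadipocyte state, had 42.7, 41.6 and 45.3 CPM, against 63.1, 73.6 and 57.9 CPM in controls (-0.59 ± 0.11, adjusted p = 0.012). Both sets of groups were apart, and both calls held in every omission. Zfp869, the exception with KRAB, fell by 0.50 ± 0.13 (adjusted p = 0.0382) and Zfp410, a direct activator of the chromatin remodeller gene Chd4, fell by 0.39 ± 0.10 (0.0379). Each of these last calls was lost in 7 of 9 omissions (up to 0.134 and 0.117). The call counts also moved, to 34, 27, 31 and 36 without control 1, control 2, 24 h 2 and 24 h 3. At 24 h the astrocyte marker sum in meninges was 85.7 to 167 CPM, against 65.8 to 83.5 CPM in controls. The osteoblast sum was 652 to 1070 CPM, against 1190 to 1580 CPM, and the pineal sum 795 to 893 CPM, against 1010 to 1290 CPM. By single markers, the 24 h libraries lay below all controls for 3 of 6 osteoblast markers and above them for 1. They lay below for 3 of 4 pineal markers and above for 0, and above for 1 of 4 astrocyte markers and below for 0. None of these 14 markers was at 0 in meninges, and their part in the results was not tested.

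In skull, the irradiated tissue, 40 members (14.4%) rose and 5 (1.81%) fell at 0.5 h, against 1.96% of all tested genes called higher and 2.94% lower. The 0.5 h libraries lay above the controls for 103 members (37.2%), against 13.4% of all genes. Zfp60, a KRAB gene with 19 fingers, had 12.3, 9.85 and 9.62 CPM at 0.5 h, against 2.91, 4.27 and 4.42 CPM in controls. That was the largest fold change of a member at this time (1.45 ± 0.21, adjusted p = 0.00397). Zfp780b had 8.76, 9.32 and 7.51 CPM, against 3.51, 2.73 and 3.94 CPM in controls (1.33 ± 0.21, adjusted p = 0.00591). Zfp286 had 6.12, 5.49 and 5.02 CPM, against 2.08, 2.73 and 2.28 CPM in controls (1.22 ± 0.22, adjusted p = 0.0118). Zfp65 had 10.1, 9.20 and 9.83 CPM, against 4.99, 4.38 and 3.18 CPM in controls (1.21 ± 0.18, adjusted p = 0.00547). None of the 4 had overlapping groups, and Zfp286 alone among them lost its call, without 0.5 h 1 or 0.5 h 2 (up to 0.06).

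The members that fell in skull at 0.5 h were led by Zkscan14, with 9.18, 7.61 and 10.7 CPM, against 19.2, 15.2 and 14.5 CPM in controls (-0.83 ± 0.17, adjusted p = 0.0209). Zfp622, a factor of large ribosomal subunit maturation in yeast and human cells, had 51.1, 47.6 and 48.8 CPM, against 62.9, 72.4 and 88.6 CPM in controls (-0.60 ± 0.12, adjusted p = 0.0173). Zfp281, a repressor that works with the NuRD complex in stem cells, had 40.4, 35.9 and 36.5 CPM, against 54.8, 54.7 and 61.5 CPM in controls (-0.60 ± 0.10, adjusted p = 0.0067). All 3 were below the controls in every 0.5 h library, as was Zfp1 (-0.56 ± 0.13, adjusted p = 0.0345). Zkscan14 lost the call without control 1, 0.5 h 1 or 0.5 h 2 (up to 0.101), Zfp622 without 0.5 h 1 or 0.5 h 2 (0.0865), Zfp281 without 0.5 h 2 (0.0528) and Zfp1 in 7 of 9 omissions (0.134). The 45 calls became 13 without 0.5 h 2, 15 without 0.5 h 1 and 29 without control 1, while the members' median stayed between 0.18 and 0.26. The ribosomal protein median was -0.31, with 23 of 77 genes called lower, and its part in the result was not tested.

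At 24 h in skull 68 members (24.5%) rose and 23 (8.30%) fell, against 10.6% and 10.4% of all tested genes. The share that fell was thus near the background, and the share that rose was above it. The 24 h libraries lay above the controls for 114 members (41.2%), against 19.6% of all genes. Zfp60 had 13.1, 14.3 and 10.5 CPM, against 2.91, 4.27 and 4.42 CPM in controls (1.71 ± 0.21, adjusted p = 0.000222). Zfp780b stood at 1.55 ± 0.21 (adjusted p = 0.000451) and Zfp65 at 1.33 ± 0.18 (0.000516). Zscan22 had 10.4, 11.6 and 11.9 CPM, against 3.21, 5.12 and 4.42 CPM in controls (1.41 ± 0.21, adjusted p = 0.000968). These 4 kept the call in all 9 omissions, and their groups did not overlap. The number of calls fell to 55 without 24 h 1.

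Among the members that fell in skull at 24 h, Zkscan14 had 6.45, 6.73 and 5.61 CPM, against 19.2, 15.2 and 14.5 CPM in controls (-1.38 ± 0.18, adjusted p = 0.000355). Zfp622 had 41.1, 37.1 and 44.9 CPM, against 62.9, 72.4 and 88.6 CPM in controls (-0.86 ± 0.12, adjusted p = 0.000529). Zfp956 had 10.7, 10.9 and 9.63 CPM, against 16.1, 15.7 and 20.9 CPM in controls (-0.75 ± 0.15, adjusted p = 0.00425). All 3 were below every control and kept the call in all omissions. Zfp831 fell by 0.76 ± 0.24 (adjusted p = 0.0381), a call lost in 6 of 9 omissions (up to 0.121). At 24 h the summed level of the microglia list (4 markers) in skull was 508 to 595 CPM, against 354 to 363 CPM in controls, and that of 4 erythroid markers 1070 to 1610 CPM, against 1800 to 2000 CPM. The oligodendrocyte list (4 markers) gave 56.1 to 74.8 CPM, against 96.9 to 114 CPM, and the meningeal fibroblast list (6 markers) 52.1 to 63.3 CPM, against 66.2 to 128 CPM. By single markers, 1 of 4 microglia markers lay above all controls in every 24 h library, and 0 lay below. Below all controls were 2 of 4 erythroid, 2 of 4 oligodendrocyte and 2 of 6 meningeal fibroblast markers, with 0 above. No marker of these lists was at 0 in skull, and their part in the results was not tested. The ribosomal protein median was -0.052.

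Over the 6 comparisons with control, 106 members were called higher at least once, 24 lower at least once and 150 in neither direction. Of those called higher, 66 carried KRAB and 39 did not, and 1 had no annotated protein. No member was called higher in all 6, since brain at 0.5 h held no call. Called higher in the other 5 were Zfp322a, Zfp60, Zfp65, Zfp790, Zkscan3 and Zscan26. Each of these 6 genes also had its irradiated libraries above all controls in brain at 0.5 h, as did 13 further members that were apart from controls in all 6 comparisons. For the 6, log2 fold changes in brain at 0.5 h were 0.20 to 0.37, with adjusted p of 0.46 or more. The brain 24 h calls by which the 6 were picked use the same 3 controls. Their position above controls at 0.5 h is thus not separate support. Called higher at 24 h in all 3 tissues were these 6 with Zfp111, Zfp160, Zfp719, Zfp799, Zfp84 and Zfp950. These counts over several comparisons were made for members only, with no share over all tested genes beside them. They are therefore not read as particular to the members.

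**Figure D3:**
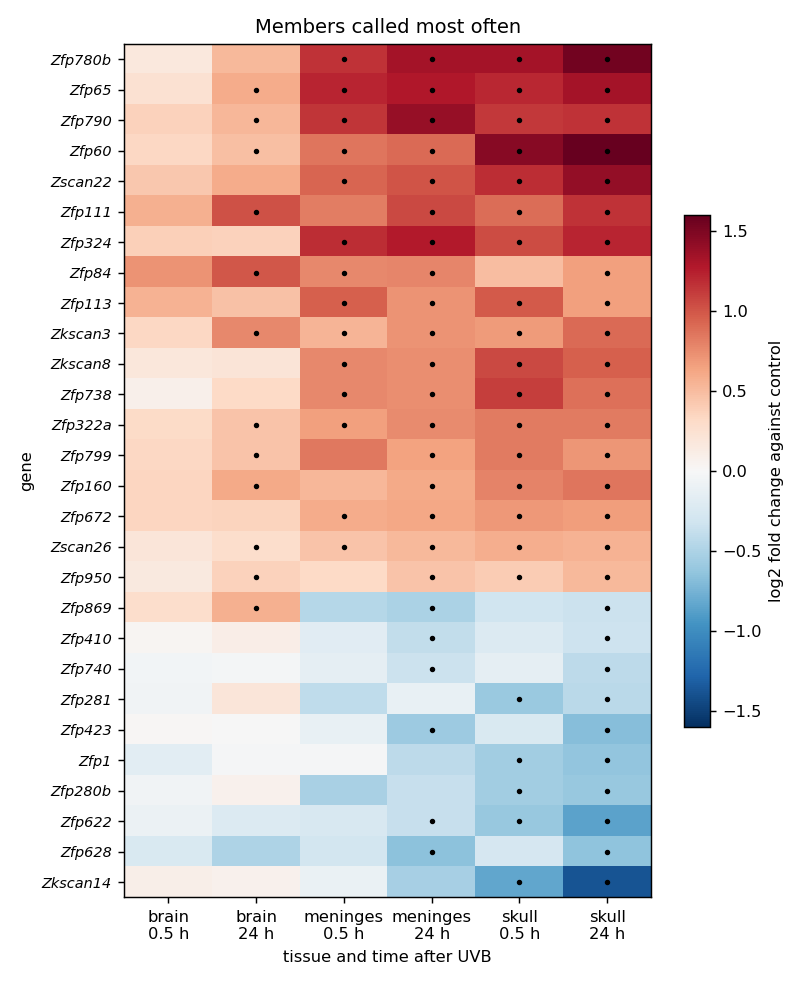
Log2 fold change against control (colour) of the members called higher in at least 4 or lower in at least 2 of the 6 comparisons, with a dot where the edgeR adjusted p was under 0.05; columns are tissues and times, and rows run from the highest to the lowest mean. The upper rows are red in all columns, and Zfp869 is red in brain and blue in meninges and skull.

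Of the 6, Zscan26 had the lowest mean log2 fold change over the 6 comparisons (0.43) and Zfp65 the highest (0.98). Zscan26 had 70.7, 77.1 and 70.2 CPM at 0.5 h and 77.9, 71.1 and 78.5 CPM at 24 h in meninges, against 52.5, 50.8 and 54.9 CPM in controls (0.46 ± 0.08 and 0.52 ± 0.08, adjusted p = 0.022 and 0.00283). In brain its 24 h call was marginal (0.29 ± 0.07, adjusted p = 0.0484) and was lost in 8 of 9 omissions (up to 0.137). It overlaps the antisense transcript 4930470G03Rik by 1031 exon bases, and without a known strand setting their reads cannot be told apart. Zkscan3 had 124, 124 and 109 CPM at 24 h in skull, against 66.7, 65.5 and 58.0 CPM in controls (0.91 ± 0.09, adjusted p = 7.13e-05). In meninges it had 161, 146 and 142 CPM at 24 h, against 80.9, 97.4 and 94.0 CPM in controls (0.72 ± 0.10, adjusted p = 0.00182). Zfp322a had 18.9, 19.3 and 18.7 CPM in skull at 24 h, against 10.2, 11.2 and 10.5 CPM in controls (0.84 ± 0.12, adjusted p = 0.000724), with little spread in either group. In brain Zfp65 and Zfp60 rose at 24 h, at 0.59 ± 0.14 (adjusted p = 0.0371) and 0.48 ± 0.11 (0.0309). The call of Zfp65 in brain was lost in 5 of 9 omissions (up to 0.137).

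**Figure D4:**
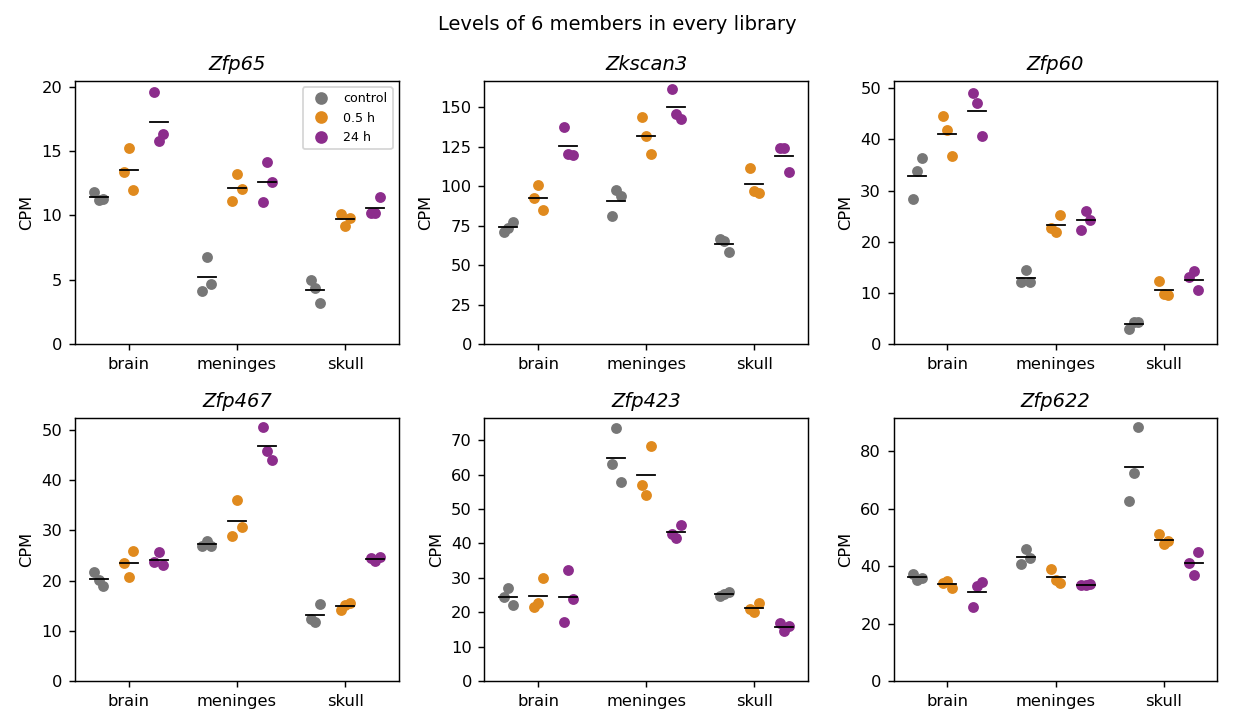
CPM (TMM-scaled within each tissue, so that levels compare within and not across tissues) of 6 members in every library, by tissue and, within it, control, 0.5 h and 24 h; bars are group means. Zfp65, Zkscan3 and Zfp60 are higher after UVB, Zfp467 is higher in meninges and skull at 24 h, and Zfp423 and Zfp622 are lower there.

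The promoters of 3 of the 6 are shown, picked because their windows hold a motif that was searched for. Of the others, Zkscan3 had no matched window, and the windows of Zfp790 and Zscan26 hold no such motif. The windows run from 250 bases before to 50 after the annotated start and come from RefSeq on GRCm38.p6. Zfp60 lies on the plus strand (chr7:27731159-27731458) and Zfp65 and Zfp322a on the minus strand (chr13:67729124-67729423 and chr13:23369159-23369458). Capitals mark the ETS motif CCGGAAG, here on the opposite strand, in Zfp60 and Zfp65, and in Zfp322a the NRF1 motif (GCGC, any 2 bases, GCGC), which reads the same on both strands.
Zfp60: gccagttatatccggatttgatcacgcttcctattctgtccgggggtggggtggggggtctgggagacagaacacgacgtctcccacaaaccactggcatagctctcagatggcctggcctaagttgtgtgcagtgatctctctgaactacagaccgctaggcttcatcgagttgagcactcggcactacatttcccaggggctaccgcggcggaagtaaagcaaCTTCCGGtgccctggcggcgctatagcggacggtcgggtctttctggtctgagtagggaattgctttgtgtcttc
Zfp65: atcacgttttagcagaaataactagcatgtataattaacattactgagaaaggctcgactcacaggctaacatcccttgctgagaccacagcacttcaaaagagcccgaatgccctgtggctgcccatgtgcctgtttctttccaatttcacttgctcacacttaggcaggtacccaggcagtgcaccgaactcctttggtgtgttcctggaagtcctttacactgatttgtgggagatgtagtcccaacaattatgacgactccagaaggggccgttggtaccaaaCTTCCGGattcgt
Zfp322a: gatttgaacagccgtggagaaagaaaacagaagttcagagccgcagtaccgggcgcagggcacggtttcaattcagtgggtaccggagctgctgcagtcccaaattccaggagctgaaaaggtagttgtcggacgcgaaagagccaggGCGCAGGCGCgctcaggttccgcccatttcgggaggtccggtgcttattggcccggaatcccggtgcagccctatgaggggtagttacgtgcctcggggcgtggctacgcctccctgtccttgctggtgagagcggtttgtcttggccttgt

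Windows were matched for 227 of the 279 members and, on both strands, 5 motifs were counted. The ETS motif was present in 22.5% of the members' windows, against 9.12% of all 27025 promoters of the same length. Over the 24 matched members called higher in 3 or more comparisons the share was 33.3% for ETS and 12.5% for NRF1, and 0 of the 24 held the YY1, E-box or CRE motif. A YY1 motif (AANATGGCG) was present in 8.37% of the members' windows, against 2.51%, and the NRF1 motif in 10.1%, against 6.43%. With KRAB the NRF1 share was 6.61%, near that of all promoters, and without KRAB it was 14.4%. For ETS these shares were 24.8% and 19.2%, and for YY1 7.44% and 9.62%. An E-box (CACGTG) was present in 6.61%, against 7.24%, and a CRE (TGACGTCA) in 3.52%, against 1.88%. Members' windows also held more CpG dinucleotides, with a median of 16, against 7, and none of these shares was adjusted for that. The windows of Zfp790 and Zscan26 hold none of the 5 motifs, which says only that these letters are not in these windows.

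Among KRAB members, medians were higher in the classes with more fingers. For the 26 KRAB genes with 16 or more fingers the median log2 fold change was 0.43 in brain, 0.47 in meninges and 0.49 in skull at 24 h, with 8, 10 and 11 of them called higher. For the 12 with 2 to 5 fingers it was 0.10, 0.13 and 0.18, with 1, 0 and 1 called. Of all tested genes 1.21%, 3.97% and 10.6% were called higher at 24 h in brain, meninges and skull. Members without KRAB and with 0 or 1 finger (16 genes) had medians of -0.016, -0.014 and -0.13 at 24 h. Those without KRAB and with 11 to 15 fingers (20 genes) had 0.14, 0.37 and 0.42, but those with 16 or more (15 genes) had 0.092, 0.14 and 0.033, so that medians did not follow finger number there. Finger number, KRAB, GC content and chromosomal clustering go together among these genes, and their separate parts were not tested.

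The members lie on 20 chromosomes, with 62 on chromosome 7, 35 on 17, 20 on 8 and 19 each on 5 and 13. Taking members less than 500 kb apart as a cluster, 114 lay in clusters of 4 or more, and 111 lay alone. The clustered members had medians of 0.29 in brain, 0.31 in meninges and 0.38 in skull at 24 h, against 0.11, 0.12 and 0.044 for those alone. The chromosome 13 cluster at 67.4 to 67.7 Mb (GRCm38), whose 8 members all have KRAB and include Zfp87, Zfp748, Zfp738 and Zfp65, had medians of 0.28 to 0.68 over the 6 comparisons. A second chromosome 13 group at 21.4 to 21.5 Mb (Zscan12, Zkscan3, Zscan26 and Zkscan8), in which the profile found KRAB in Zkscan8 alone, had 0.26 to 0.73. The largest cluster, 17 KRAB genes on chromosome 17, had 0.10 to 0.55. Not every cluster behaved so: on chromosome 5 the neighbours Zkscan14, Zkscan5, Zfp655 and Zscan25 had a median of -0.42 at 0.5 h and -0.49 at 24 h in skull. Neighbours in a cluster resemble each other in sequence, and 25 of the 279 members share more than 10% of their 50-base stretches with another gene.

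KRAB members were also set beside other genes of the same GC content. Among transcripts with 40 to 45% GC, the 55 KRAB members had a median of 0.29 in brain, 0.30 in meninges and 0.32 in skull at 24 h, against 0.058, 0.049 and 0.027 for other genes of that class above the same floor (2205 in brain). At 45 to 50% GC the 28 KRAB members had 0.32, 0.38 and 0.42, against 0.014, 0.017 and 0.013. Above 55% GC (9 KRAB members) the medians were 0.072, 0.32 and 0.05, against -0.109, -0.007 and -0.012 for other genes. In brain at 24 h the median of other genes thus ran from 0.103 under 40% GC to -0.109 above 55%. With offsets for GC content and length in the fit, the KRAB median was 0.17 at 0.5 h and 0.27 at 24 h in brain, 0.28 and 0.29 in meninges, and 0.26 and 0.32 in skull.

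**Figure D5:**
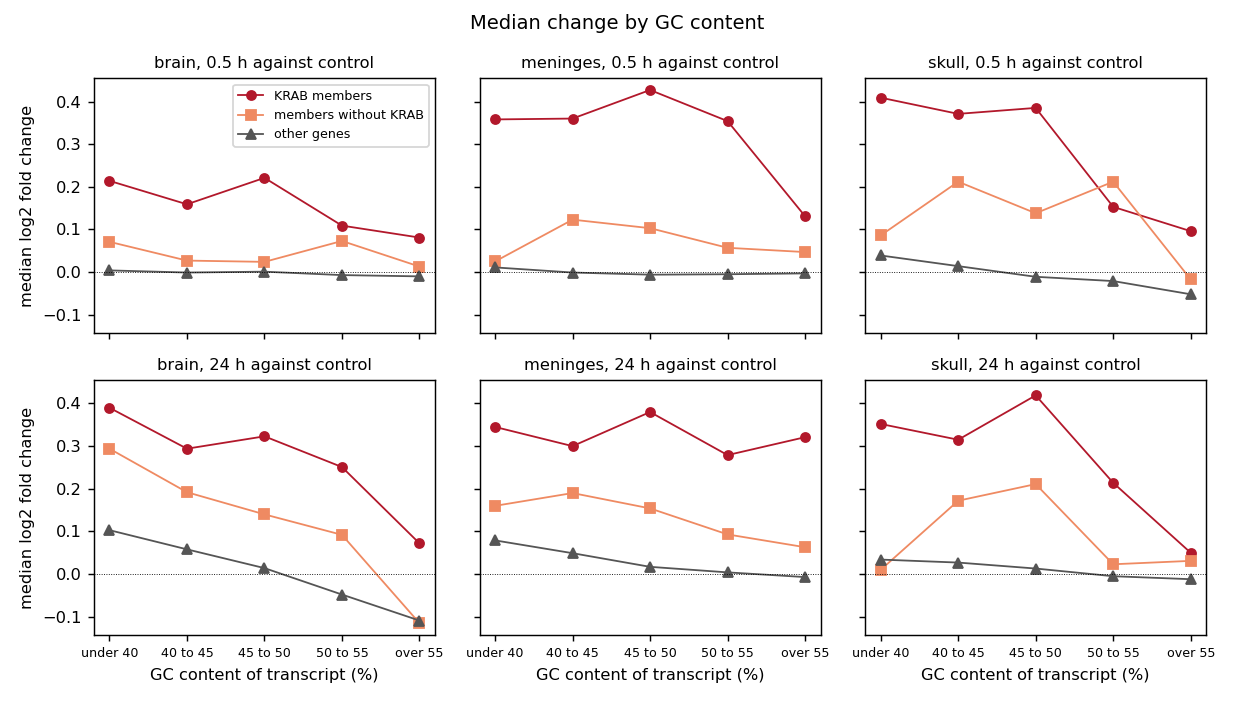
Median log2 fold change against control (y axis) by GC content of the transcript (x axis) in the 6 comparisons, for KRAB members, members without KRAB and other genes with a mean raw count of at least 100. The KRAB line lies above that of other genes at every GC class in all 6 panels.

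Other families named for zinc-binding domains are given beside them as a description. Transcription factors of the BTB type (36 Zbtb genes) had medians of 0.016 to 0.11 over the 6 comparisons, with at most 6 called higher. Over the same comparisons 0 to 10.6% of all tested genes were called higher, and the Zbtb count is not read as particular to that family. CCCH genes (14 Zc3h genes, RNA-binding proteins) had -0.067 to 0.041, and RING genes (66 Rnf genes, mostly ubiquitin ligases) -0.13 to 0.001. Of the 33 measured partners of KRAB silencing, 8 were called higher and 1 lower in meninges at 24 h (median 0.10), against 3.97% and 4.45% of all tested genes. In skull at 24 h 6 were called higher and 2 lower (median 0.093), against 10.6% and 10.4%. Setdb1 rose at 24 h in meninges (0.54 ± 0.11, adjusted p = 0.0134) and in skull (0.54 ± 0.08, 0.00106). Trim28 rose in meninges (0.24 ± 0.06, adjusted p = 0.044) and had 0.16 ± 0.08 in skull (0.176). In brain no partner was called at either time, with 3 at 0.5 h and 7 at 24 h at an unadjusted p under 0.05 (edgeR; DESeq2 was not run for this list).

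Members with known roles outside KRAB silencing moved both ways. Zfp467, which turns marrow stromal cells toward fat and away from bone, had 50.5, 45.9 and 44.0 CPM at 24 h in meninges, against 27, 27.9 and 26.9 CPM in controls (0.78 ± 0.11, adjusted p = 0.00186). In skull it had 24.6, 23.9 and 24.8 CPM at 24 h, against 12.4, 11.7 and 15.3 CPM in controls (0.90 ± 0.13, adjusted p = 0.000659). The 24 h libraries stood clear of the controls in both tissues. At 0.5 h it had not passed in either (0.23 ± 0.11 and 0.19 ± 0.13). Zfp423 fell in skull too, with 16.8, 14.6 and 16 CPM at 24 h, against 24.7, 25.2 and 25.8 CPM in controls (-0.68 ± 0.11, adjusted p = 0.00127). Zfp521, a relative of Zfp423 that binds the same EBF partners, had 84.7, 69.0 and 81.0 CPM at 24 h in skull, against 90.2, 94.1 and 136 CPM in controls (-0.45 ± 0.14, adjusted p = 0.0479). This call was lost in 7 of 9 omissions (up to 0.144).

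Zfp143, an activator bound at many promoters, was called higher in skull at both times. There it had 23.9, 22.0 and 18.1 CPM at 0.5 h and 17.4, 18.9 and 15.4 CPM at 24 h, against 11.3, 13.0 and 11 CPM in controls (0.85 ± 0.14 and 0.55 ± 0.14, adjusted p = 0.0087 and 0.0186). In meninges it rose at 0.5 h (0.62 ± 0.12, adjusted p = 0.0354) but lost the call in 7 of 9 omissions (up to 0.205). The skull calls ended without 0.5 h 2 at 0.5 h (0.054) and without control 1, 24 h 1 or 24 h 2 at 24 h (up to 0.0626). Zfp638, a cofactor of HUSH silencing of retroviral DNA and of adipocyte factors, had 74.7, 73.9 and 77.6 CPM at 24 h in skull, against 51.8, 59.8 and 49.7 CPM in controls (0.49 ± 0.09, adjusted p = 0.00283). Zfp809, a KRAB protein that silences murine leukaemia virus in mouse stem cells, had 15.2, 15.7 and 16.7 CPM, against 9.99, 11.2 and 9.12 CPM in controls (0.65 ± 0.13, adjusted p = 0.00532). Zfp207, which helps chromosomes attach to the spindle, had 164, 182 and 169 CPM, against 115, 138 and 123 CPM in controls (0.46 ± 0.08, adjusted p = 0.00295). In these 3 genes every 24 h skull library exceeded every control, and the calls held in all omissions. Zfp57 and Zfp445, the KRAB proteins that guard imprints, and Zfp598, the sensor of collided ribosomes, were called in none of the 6 comparisons.

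Between the times, few members differed. In brain 3 (1.08%) were higher at 24 h than at 0.5 h and none lower, against 0.088% of all tested genes called higher and 0.132% lower. They were Zfp655, Zkscan3 and Zkscan2. Zfp655 had 49.3, 42.1 and 42.3 CPM at 24 h, against 31.0, 31.9 and 29.9 CPM at 0.5 h (0.53 ± 0.10, adjusted p = 0.024). Each of the 3 calls was lost in 3 to 7 omissions (up to 0.152), and 0 were called without 0.5 h 1, 0.5 h 3 or 24 h 1. In meninges 2 (0.717%) were higher and none lower, against 1.07% and 1.27%, a share below the background. These were Zfp367, with 23.4, 26.8 and 25.6 CPM at 24 h, against 16.8, 14.7 and 14.9 CPM at 0.5 h (0.71 ± 0.11, adjusted p = 0.0126), and Zfp467 (0.55 ± 0.10, 0.0229). Zfp367 lost the call without 0.5 h 2, 0.5 h 3 or 24 h 2 (up to 0.0577) and Zfp467 in 4 omissions (0.115).

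In skull 5 members (1.81%) were higher at 24 h than at 0.5 h and 14 (5.05%) lower, against 8.39% and 7.74% of all tested genes, again below the background. Zfp367 had 40.6, 42.0 and 35.2 CPM at 24 h, against 24.1, 19.3 and 24.6 CPM at 0.5 h (0.79 ± 0.12, adjusted p = 0.00169), and Zfp467 rose by 0.71 ± 0.13 (0.0034). Zfp831 had 4.47, 5.69 and 2.81 CPM at 24 h, against 11.1, 10.3 and 8.46 CPM at 0.5 h (-1.20 ± 0.23, adjusted p = 0.00548). These 3 calls held in all omissions. The calls of Zfp365 (0.81 ± 0.19, adjusted p = 0.0155) and Zfp185 (-0.64 ± 0.18, 0.0309) were lost in 2 and 4 omissions (up to 0.0772 and 0.128), and that of Zfp984 (-0.55 ± 0.16, 0.0401) in 7 (0.153). The 19 calls became 5 without 24 h 3, 6 without 24 h 1, 8 without 0.5 h 2, 10 without 24 h 2 and 11 without 0.5 h 1 or 0.5 h 3. The members' median was -0.04, and with GC and length offsets it was 0.031, with 10 called higher and 5 lower.

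Members were compared between tissues. Across the 277 members tested in both, the log2 fold changes at 24 h had a Pearson correlation of 0.74 between skull and meninges. It was 0.51 between meninges and brain (279 members) and 0.46 between skull and brain. These are descriptions over genes, which keep the same GC content and length in each tissue. At 24 h 33 members were called higher in both skull and meninges, 48.5% of the skull calls and 64.7% of the meninges calls. At 0.5 h 14 were, 35% and 66.7%. The overlaps and correlations were worked out for members only, with no value over all tested genes beside them. They are therefore not read as particular to these members.

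The difference in effect between tissues was tested directly in a fit of all 27 libraries. At 0.5 h 7 members (2.51%) responded differently in skull than in brain, all more strongly, against 0.209% of all tested genes. The 3 largest were Zfp780b (1.18 ± 0.24, adjusted p = 0.0334), Zfp60 (1.14 ± 0.21, 0.0248) and Zfp286 (1.08 ± 0.21, 0.0288). For meninges against brain 0 were called with edgeR (38 at an unadjusted p under 0.05, 4 with DESeq2), against 0.0093% of all genes, and for skull against meninges likewise 0 (22 and 1), against 0.0093%. The 7 became 0 without brain control 3, brain 0.5 h 3 or skull 0.5 h 1, 1 without brain control 2, skull control 1, brain 0.5 h 1 or skull 0.5 h 2, 2 without skull control 3 and 3 without brain 0.5 h 2.

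At 24 h 24 members (8.60%) differed between skull and brain, 10 toward skull and 14 toward brain, against 6.71% of all tested genes, a share near the background. Zfp60 again responded more in skull (1.71, against 0.48 in brain; difference 1.22 ± 0.21, adjusted p = 0.00105). Zfp780b did too (difference 1.03 ± 0.24). Zkscan14 fell in skull and had 4.39, 7.75 and 7.14 CPM at 24 h in brain, against 6.88, 6.70 and 4.78 CPM in controls (difference -1.45 ± 0.32). For meninges against brain 4 (1.43%) differed, against 1.32% of all genes. Zfp869 rose in brain, with 40.8, 42.3 and 39.7 CPM at 24 h, against 25.4, 32.0 and 25.9 CPM in controls (0.56 ± 0.10, adjusted p = 0.00829), and fell in meninges, with 52.7, 47.7 and 62.2 CPM, against 87.5, 78.2 and 64.9 CPM. The differences in effect were -1.09 ± 0.15 for meninges minus brain and -0.91 ± 0.15 for skull minus brain, and both calls held in all 27 omissions. Zfp46 and Zfp655 rose in brain by 0.52 ± 0.08 and 0.60 ± 0.10, and had -0.14 ± 0.11 and -0.0083 ± 0.10 in meninges (differences -0.69 ± 0.13 and -0.63 ± 0.13). For skull against meninges 0 were called with edgeR (31 at an unadjusted p under 0.05, 4 with DESeq2), against 0.633% of all genes.

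Levels were also compared between the untreated tissues. Control meninges were higher than control brain for 68 members (24.4%) and lower for 124 (44.4%), against 36.8% and 33.7% of all tested genes. Control skull was higher than control brain for 70 (25.1%) and lower for 139 (49.8%), against 37.3% and 38.3%. Control skull was higher than control meninges for 42 (15.1%) and lower for 91 (32.6%), against 21.6% and 26.5%. This balance depended on the fit: with GC and length offsets the counts were 101 higher and 92 lower, 120 and 94, and 99 and 58. The members' medians were -0.20, -0.33 and -0.12, and with the offsets 0.048, 0.18 and 0.14, so that no direction for the class holds across tissues. RLE scaling gave -0.31, -0.41 and -0.099, and moved the median of all genes between meninges and brain by 0.1, to -0.04, against 0.06.

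Single members differed by far more than that. Zfp365, the most abundant member of brain per length (104 ± 9.63 CPM per kb, SD, n = 3), had 6.32, 5.39 and 9.52 CPM in control meninges and 9.32, 7.55 and 10.4 CPM in control skull, against 522, 505 and 599 CPM in control brain. Its log2 fold change was -6.26 ± 0.30 in meninges and -5.90 ± 0.29 in skull. Zkscan16 and Zfp831 were likewise low in meninges (-5.22 ± 0.29 and -4.70 ± 0.27). Zfp804a, a neuronal gene linked to schizophrenia in humans, had 0.125, 0.0545 and 0.724 CPM in control meninges and 0, 0.0619 and 0.149 CPM in control skull, against 28.6, 30.7 and 31.8 CPM in control brain. Higher in the border tissues were Zfp185, an actin-associated LIM domain protein (3.64 ± 0.27 in meninges and 3.30 ± 0.27 in skull), and Zfp521 (2.62 ± 0.19 and 3.07 ± 0.20). Zfp521 had 104, 79.8 and 71.6 CPM in meninges and 98.2, 102 and 146 CPM in skull, against 12.8, 16 and 12.7 CPM in brain. Zfp395 was higher in meninges (2.49 ± 0.14) and Zfp217 in skull (3.33 ± 0.24).

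Between the border tissues, Zfp622 and Zkscan14 were higher in skull than in meninges (1.01 ± 0.11 and 1.16 ± 0.22). Both are members that fell in skull after UVB. Zfp536, a repressor of neuronal differentiation, had 0.194, 1.30 and 0.448 CPM in control skull, against 21.3, 21.8 and 27.6 CPM in control meninges and 37.6, 38.8 and 38.9 CPM in control brain. Zfp612 and Zfp385a, a partner of p53, were also lower in skull than in meninges (-3.42 ± 0.23 and -2.01 ± 0.12). Adjusted p for the differences in these 2 paragraphs were 0.000118 or less, and every call held in all 27 omissions. As a check of the tissue labels, the neuronal marker sum was 9.95 to 14.4 CPM in control skull and 241 to 482 CPM in control meninges, against 5200 to 5490 CPM in control brain. Osteoblast and neutrophil sums in control meninges reached 1580 and 582 CPM, and the choroid plexus sum ran from 14.1 to 6060 CPM between its 3 libraries.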

How the data were processed

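The 27 libraries cover 3 mouse tissues with 3 groups of 3 each. The deposited file holds raw counts per gene symbol; HISAT2 2.1.0 and the mm10 build are named in the submitters' processing notes. How reads were counted, with which annotation and strand setting, is not given in the sources used here. Every count column was matched to a sample by its label.

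These counts went into edgeR 4.0.16 (robust quasi-likelihood fits, R 4.3.3) with TMM scaling and filterByExpr (minimum count 10, minimum total 15), each tissue in its own fit of 9 libraries, and tissue contrasts and differences in effect in a fit of all 27. Benjamini-Hochberg adjustment covered every gene of a fit (18172 in brain, 18542 in meninges, 17426 in skull, 21500 in all), with a threshold of 0.05. Counts at an unadjusted p under 0.05 are given without the share over all tested genes and are not read as results. Printed errors of log2 fold changes are SE, worked back from the F statistic. CPM is the count scaled to a TMM-adjusted total; marker sums use plain totals. The scripts were tested on simulated data. Alternatives were RLE scaling, no filter, DESeq2 1.42.0, a replicate block, GC and length offsets, 1 fit of all 27 libraries and omission of each library.

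Coordinates, GC content, length and proteins come from GENCODE M21 (GRCm38), in which 278 of 279 members were found. KRAB was called with a profile (pyhmmer 0.12.3, E-value up to 1e-05) built from 86 matches of a fixed pattern, a step added after the pattern had been set; fingers are matches of C, 2 to 4 residues, C, 12 residues, H, 3 to 5 residues, H. Exons of 68 members overlap a gene on the opposite strand. The members and gene lists were chosen with earlier results of these data known. Named were up to 4 members in each direction with the largest called fold changes at a mean of at least 1 CPM and with all libraries on their side (3 and 3 between times and for differences in effect; where fewer than 4 passed against control, also the 3 of smallest p), and members with known roles. Genes named in the sections on position and on families were chosen after their values were seen.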

Additional observations from a re-analysis of the deposited data

Results flagged for a closer look

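Effects differed between 2 tissues by a test of the difference itself (edgeR, fit of all 27 libraries, adjusted over all tested genes). At 0.5 h 7 members (2.51%) were called for skull minus brain, against 0.209% of all tested genes. At 24 h 4 (1.43%) were called for meninges minus brain, against 1.32%, and 24 (8.60%) for skull minus brain, against 6.71%. Listed here are 10 members, with up to 3 of the largest called differences in each direction of a contrast. The values are differences of log2 fold changes. At 0.5 h, skull minus brain, they were 1.18 for Zfp780b, 1.14 for Zfp60 and 1.08 for Zfp286. At 24 h, meninges minus brain, they were 0.72 for Zfp180, -1.09 for Zfp869, -0.69 for Zfp46 and -0.63 for Zfp655. At 24 h, skull minus brain, they were 1.22 for Zfp60, 1.03 for Zfp780b, 0.84 for Zfp324, -2.51 for Zkscan2, -1.45 for Zkscan14 and -0.91 for Zfp869.

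Zfp180 rose in meninges at 24 h, with 26.3, 32.2 and 31.5 CPM, against 20.2, 21.0 and 24.8 CPM in controls, and had 50.6, 52.6 and 52.5 CPM in brain, against 61.8, 59.3 and 70.0 CPM in controls (log2 fold change -0.29, adjusted p = 0.0853).

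The Zkscan2 difference rests on a gene that is hardly present in skull. Its skull levels were 0.17, 0.551 and 0.183 CPM at 24 h, against 0.119, 2.73 and 0.691 CPM in controls, and the call was lost in 6 of 27 omissions (adjusted p up to 0.423) and without the filter on low counts (0.0807). The Zfp324 difference was lost in 17 of 27 omissions (up to 0.12). At 0.5 h Zfp60, Zfp780b and Zfp286 lost the call in 5, 8 and 9 omissions (up to 0.111), and Zfp780b also with GC and length offsets (0.0534). The other 8 differences held in all 27 omissions.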

How the results depend on the processing

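The direction of the members' median against control was positive under every alternative run in all 3 tissues and at both times, while the number of calls moved. DESeq2 gave 1 call in brain at 0.5 h, 42 in meninges and 71 in skull at 0.5 h, 5 in brain and 5 in meninges for 24 h against 0.5 h, and for differences in effect 4 (meninges minus brain), 13 (skull minus brain) and 1 (skull minus meninges) at 0.5 h and 18, 40 and 4 at 24 h. Without the filter there were 2 in brain at 0.5 h, 54 in brain at 24 h, 7 in brain and 4 in meninges for 24 h against 0.5 h. With all 27 libraries in 1 fit there were 20 in brain at 24 h, 38 in meninges and 71 in skull at 0.5 h, and 5 in meninges for 24 h against 0.5 h. GC and length offsets left 10 in meninges at 0.5 h and gave 1 at 24 h for skull minus meninges. The cause was not tested.

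With the replicate number as a block there were 20 calls in brain at 24 h, 4 in meninges at 0.5 h, and 1 each in brain and meninges for 24 h against 0.5 h. The labels do not say whether numbers pair libraries. The deviations of same-numbered libraries correlated between -0.474 and 0.18. Differently numbered libraries were not set beside them, so these values cannot decide whether numbers pair libraries.

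Leaving out 1 library at a time gave, in brain, 0 to 0 calls at 0.5 h, 13 to 32 at 24 h and 0 to 3 between the times; in meninges 1 to 18, 27 to 51 and 0 to 3; in skull 13 to 42, 55 to 87 and 5 to 25. For control tissues it gave 179 to 195 (meninges against brain), 201 to 215 (skull against brain) and 112 to 133 (skull against meninges). Differences in effect gave 0 to 0, 0 to 7 and 0 to 0 at 0.5 h and 4 to 6, 19 to 27 and 0 to 2 at 24 h, in the order meninges minus brain, skull minus brain, skull minus meninges. Of the values of named members under these settings, 2312 kept their side of the threshold, 310 lost it, 17 gained it and 0 changed sign. By the fixed KRAB pattern alone, chosen as an alternative after seeing the data, the KRAB median in skull was 0.39 at 0.5 h and 0.41 at 24 h. Depth limits the precision of low members: in brain at 24 h the SE was 0.23 for Zfp87 (3.50 to 6.89 CPM in controls) and 0.08 for Zkscan3 (70.7 to 77.2 CPM).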
